A study of Mus musculus with 6 samples.

Results

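The matrix metalloproteinases (MMPs), the ADAM and ADAMTS proteases, the ADAMTS-like proteins and the tissue inhibitors of metalloproteinases (TIMPs) were compared between cranial neural crest and cranial mesoderm of the mouse embryo at E9.5. Genes were taken by symbol, as every probe of the array annotated to a numbered Mmp, Adam, Adamts, Adamtsl or Timp gene. That gave 77 genes with 152 probes, of 19057 genes named on the array. They comprised 21 Mmp, 31 Adam, 17 Adamts, 4 Adamtsl and 4 Timp genes.

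GFP-positive cells were sorted from embryonic heads, 3 independently isolated samples of each kind, and each sample was hybridized to its own array. The crest embryos were of the cross Wnt1-Cre x Z/EG, the mesoderm embryos of the cross Mesp1-Cre x Z/EG, both on a C57Bl/6 x 129 x ARC/s background, so every embryo carried a Cre transgene and the Z/EG reporter, which turns on GFP after recombination. The Wnt1 driver is active in the dorsal neural tube from which crest leaves, and the Mesp1 driver in early mesoderm, whose descendants include blood vessels and blood. Each sort is therefore a mixture of cell types, and the head mesoderm sort is not mesenchyme alone. No number of embryos per sample was given in the sources used here.

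MMPs, ADAMs and ADAMTS enzymes are zinc-dependent proteases. MMPs cleave collagens and other matrix proteins outside the cell or at its surface, most ADAMs are anchored in the membrane and release the outer parts of other surface proteins, and ADAMTS enzymes are secreted and cleave matrix proteoglycans, procollagens and related proteins. TIMPs bind the active site of the proteases and block it. In the embryonic head such enzymes are known for opening matrix to migrating crest cells, for vessel sprouting and for releasing growth factors.

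Array signals were corrected for background, quantile normalized and put on the log2 scale, and all levels below are in these normalized log2 intensity units. A probe was kept where 3 or more of the 6 arrays gave it a detection p-value, the share of background probes as bright, under 0.05. The brightest kept probe stood for its gene. Levels are compared between arrays for 1 probe, never between probes. The median raw signal of an array ran from 99.8 to 131, and 30.8% to 34.1% of probes were detected per array. Correlations over all 45281 probes, kept or not, were at least 0.978 within crest, at least 0.970 within mesoderm and at most 0.963 between them. All 6 arrays lay on 1 BeadChip, crest at the first positions and mesoderm at the last, so position and cell type cannot be told apart.

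The marker genes followed the labels in part. Of 6 migratory crest markers tested, 4 were higher in crest, with a summed linear intensity of 9707 to 14799 on crest arrays and 3156 to 3853 on mesoderm arrays, while Foxd3 was detected on no array. The crest sort also held the higher neural tube markers (7 of 7 tested, 6734 to 11873 against 293 to 743, Pax3 and Pax7 detected on no array) and neuron markers (4 of 4, 573 to 1439 against 108 to 193). The mesoderm sort held the higher head mesoderm markers (5 of 5, 2767 to 3757 against 229 to 353). It also held the higher markers of endothelium (8 of 9, 22145 to 27897 against 313 to 358), platelets (6 of 6, 7931 to 13812 against 153 to 157) and white cells (5 of 5, 1342 to 2043 against 132 to 133, Ptprc and Adgre1 detected on no array). Of 7 red cell markers, 3 were higher in mesoderm, with a sum of 14205 to 20973 on its arrays. On the crest arrays the red cell sum was 4487, 240 and 2588, so crest replicate 2 stood apart from the other crest arrays, and it also had the highest migratory crest and neural tube sums and the lowest neuron sum of its group. Of 4 head mesenchyme markers 1 was higher in mesoderm (summed 2478 to 3543 there and 2602 to 3943 in crest). Of 3 surface epithelium markers none was called (317 to 403 and 474 to 490), and Epcam and Trp63 were detected on no array.

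Of the 77 genes, 27 were detected on enough arrays to be tested (35.1%), against 48.3% of all genes named on the array. Of these 27, 7 were higher in mesoderm (Adamts9, Adam15, Timp1, Timp3, Mmp14, Mmp9 and Adamts15), 1 was higher in crest (Adam23) and 19 passed no threshold, at a Benjamini-Hochberg adjusted p under 0.05 in limma over all 9214 genes tested. The 8 called were 29.6% of those tested. Among all genes tested 18.3% were called, 10.1% higher in mesoderm and 8.25% higher in crest. The difference in these rates was not tested. The median log2 difference, mesoderm minus crest, was 0.32 over the 27 genes and -0.07 over all genes. The split over all genes depended on scaling, with 927 higher in mesoderm and 760 higher in crest after quantile normalization and 595 and 729 after median scaling, which moved the median of all genes to -0.30. In such sorted mixtures a smaller number of cells of a type and less RNA per cell cannot be told apart.

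**Figure D1:**
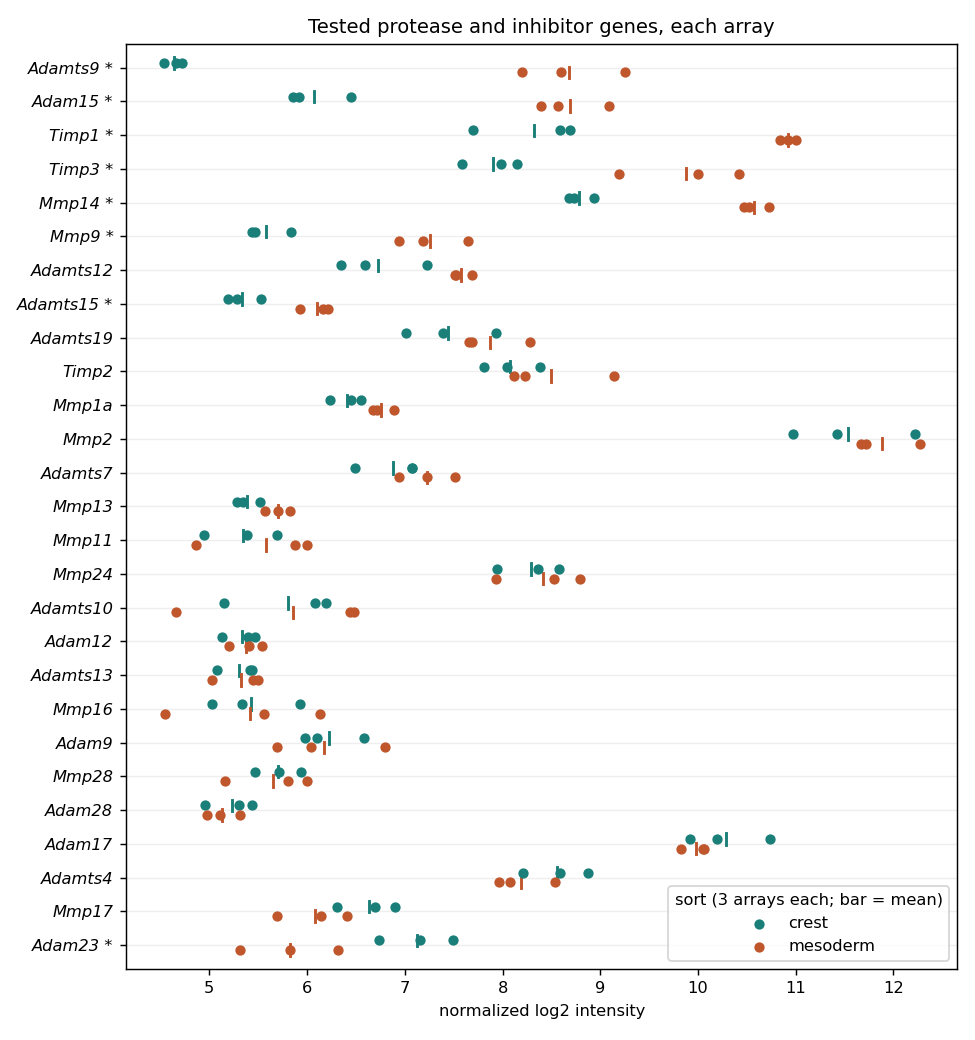
Normalized log2 intensity (horizontal axis) of the 27 tested genes (rows, ordered by difference) on each of 3 crest and 3 mesoderm arrays; points are arrays, short bars are group means, and an asterisk marks an adjusted p under 0.05 in limma. The 7 genes higher in mesoderm and Adam23 show separated groups, and most other rows overlap.

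The array values of the 2 sorts did not overlap for 11 of the 27 genes, 10 higher in mesoderm and 1 higher in crest. Over all genes tested the groups were separate for 37.2%, 17.6% higher in mesoderm and 19.6% higher in crest. The 11 genes were the 8 past the threshold with Adamts12, Mmp1a and Mmp13. Of the 27 tested genes, 18 were detected on all 6 arrays. Only Adamts9 was detected in a single sort, so it could pass the filter only through the sort in which it is high.

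Among the tissue inhibitors, Timp1 and Timp3 were both higher in mesoderm and Timp2 passed no threshold. Timp1, a secreted inhibitor of most MMPs that acts poorly on membrane-type ones, read 8.69, 7.69 and 8.59 on the crest arrays and 10.93, 11 and 10.84 on the mesoderm arrays. All 3 mesoderm values lay above all crest values and close to each other, while crest replicate 2 lay below the other crest arrays. The log2 difference was 2.60 ± 0.29 (SE), 6.04-fold, with an adjusted p of 0.000458. Crest replicate 2 was also the crest array with the low red cell sum, and without it the difference was 2.28 (adjusted p = 0.000844). A separate probe of Timp1 gave 2.59 ± 0.26.

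Timp3, which binds to the matrix and blocks ADAM17 and several ADAMTS enzymes besides MMPs, read 8.15, 7.59 and 7.98 in crest and 10.42, 9.19 and 10.00 in mesoderm. The groups were separate, and replicate 2 was the lowest of each. The difference was 1.97 ± 0.34, 3.91-fold, with an adjusted p of 0.00452. The gene's other kept probe, at 5.26 to 6.17 on all arrays, showed no such difference (-0.06 ± 0.28), and the mean of both probes gave 0.95 with an adjusted p of 0.0476. Without crest replicate 2 the difference was 1.81 (adjusted p = 0.022).

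Timp2, which blocks MMPs and also takes part in the activation of pro-MMP2 on the cell surface, read 8.04, 8.39 and 7.81 in crest and 8.11, 9.15 and 8.23 in mesoderm. The groups overlapped, and only mesoderm replicate 2 stood above all crest arrays. Its difference of 0.42 had a 95% interval of -0.31 to 1.14 and an adjusted p of 0.413. Timp4 was detected on no array. In RefSeq, Timp1, Timp3 and Timp4 lie within Syn1, Syn3 and Syn2, genes of the synapsins of nerve terminals.

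The membrane-type MMPs sit in the cell membrane, and Mmp14 (MT1-MMP), a collagenase that also activates pro-MMP2, was the one of 4 tested that was higher in mesoderm. It read 8.73, 8.68 and 8.93 in crest and 10.52, 10.47 and 10.72 in mesoderm. Replicates differed little in either sort (SD 0.13 in both, n = 3) and the groups were far apart. The difference was 1.79 ± 0.21, 3.46-fold, with an adjusted p of 0.00054. Mmp14 stayed between 1.50 and 1.87 under the 16 alternative settings counted here, array omissions included.

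Mmp17 (MT4-MMP), held in the membrane by a lipid anchor, leaned the other way, at 6.90, 6.30 and 6.69 in crest and 5.69, 6.15 and 6.41 in mesoderm. A mesoderm array lay above the lowest crest array, and the difference of -0.55 ± 0.27 had an adjusted p of 0.203. With array weights it passed (-0.75, adjusted p = 0.029). Mmp24 (MT5-MMP), known from neural tissue, differed by 0.12 ± 0.29 at the probe that stands for it. Where the deposited detection p-values chose the probe, another line of the gene gave -0.94 (adjusted p = 0.0939). Both kept probes of Mmp24 lie on lines whose matching detection p-value was on another line of the gene. Which probe gave which signal is thus not settled. The other kept probe of Mmp24 was detected on all 3 crest arrays and on no mesoderm array, so it could pass the filter only through crest. Its difference was -0.69 ± 0.27 (adjusted p = 0.126 over all kept probes), with mesoderm values of 4.83 to 5.14 below the detection limit. The opposite signs of the 2 probes are therefore a description. Mmp16 (MT3-MMP) varied more within the sorts than between them, from 5.03 to 5.92 in crest and from 4.54 to 6.13 in mesoderm. Mmp25 was detected on no array.

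The gelatinases Mmp2 and Mmp9 digest denatured and basement membrane collagen. Mmp9, known from white cells, osteoclasts and invading trophoblast, read 5.44, 5.46 and 5.84 in crest and 7.65, 6.94 and 7.18 in mesoderm. The groups were separate, with the crest values near the lowest level called detected on an array (5.19 to 5.38). The difference was 1.68 ± 0.26, 3.20-fold, with an adjusted p of 0.00255. The authors' log2 values, which match quantile-normalized signals without background correction, gave 0.78 with an adjusted p of 0.0138.

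Mmp2, a gelatinase of mesenchymal cells, read 10.98, 12.22 and 11.42 in crest and 11.67, 12.27 and 11.72 in mesoderm. It was detected on every array, and the crest arrays spanned a wider range than the mesoderm arrays and overlapped them. The difference of 0.35 ± 0.34 had a 95% interval of -0.43 to 1.13 and an adjusted p of 0.54, which does not show equal levels. Replicate 2 was the highest array of each sort for Mmp2, and also for Timp2, Adamts19, Adamts12, Adam17, Adam12 and Mmp16. No share over all genes is given for this order, and the replicate numbers were not taken to pair samples.

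Of the collagenases, which cut fibrillar collagen, Mmp1a and Mmp13 were tested and neither was called. Mmp1a read 6.45, 6.23 and 6.55 in crest and 6.67, 6.71 and 6.89 in mesoderm, and Mmp13 5.28, 5.35 and 5.52 against 5.57, 5.83 and 5.70. Both pairs of groups were separate by narrow margins, with differences of 0.35 ± 0.21 (adjusted p = 0.297) and 0.32 ± 0.21 (adjusted p = 0.338). The other kept probe of Mmp1a overlapped, from 5.35 to 5.66 in crest and from 5.32 to 5.89 in mesoderm (0.09 ± 0.24). The mean of both Mmp1a probes gave 0.22 (adjusted p = 0.517). Mmp8 and Mmp1b were detected on no array. These genes belong to a chromosomal cluster of 10 Mmp genes in RefSeq, in the order Mmp13, Mmp12, Mmp1b, Mmp3, Mmp1a, Mmp10, Mmp8, Mmp27, Mmp20 and Mmp7. Of the 9 that the array names, the same 2 were tested and the other 7 were detected on no array.

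Among the other MMPs, Mmp11 (stromelysin-3), which is activated inside the cell by furin, differed by 0.24 ± 0.35 and Mmp28 (epilysin) by -0.05 ± 0.28. The crest values of both lay within the mesoderm range, Mmp11 running from 4.94 to 5.70 in crest and from 4.86 to 6.00 in mesoderm. Mmp3, Mmp7, Mmp10, Mmp12, Mmp19, Mmp20 and Mmp21 were detected on no array, and Mmp23 on 1.

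**Figure D2:**
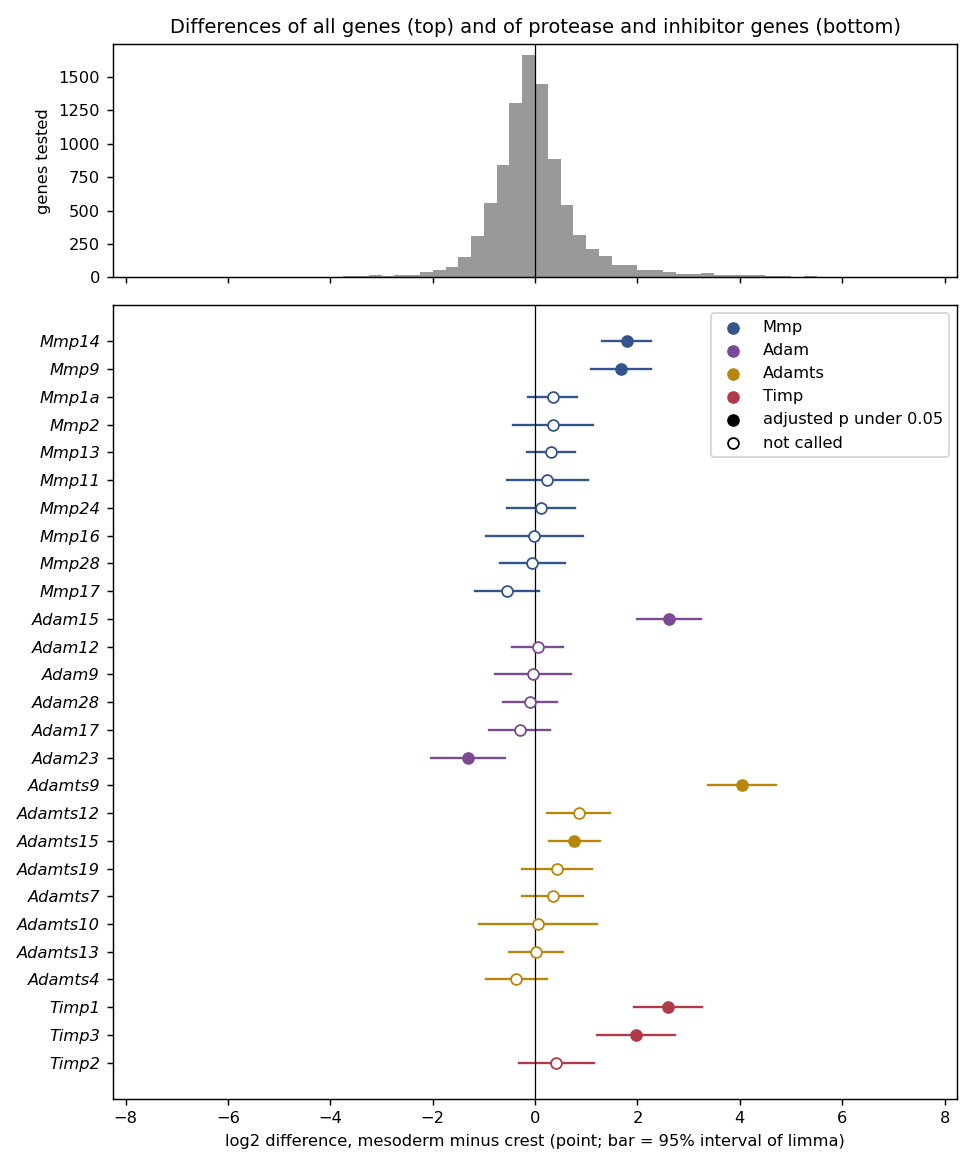
Log2 difference, mesoderm minus crest, of all 9214 tested genes as a histogram (top, number of genes per bin) and of the 27 protease and inhibitor genes by family (bottom), with bars for limma's 95% interval and filled points for an adjusted p under 0.05. The 3 Timp values and 7 of 8 Adamts values lie above 0, and Adam23 alone among filled points lies below it.

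Among the ADAMs that carry the zinc-binding motif of an active protease, Adam15 was higher in mesoderm and the other 4 tested were not called. Adam15, a membrane protease found in endothelium and other tissues, read 5.91, 5.85 and 6.45 in crest and 8.57, 8.40 and 9.09 in mesoderm. The groups were separate by more than the range of either, and replicate 3 was the highest in both. The difference was 2.62 ± 0.27, 6.13-fold, with an adjusted p of 0.000297. Where the deposited detection p-values chose the probe, another line of the gene, at background, gave -0.06 (adjusted p = 0.818), and without background correction the difference was 1.64.

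Adam17 (TACE), which releases TNF, EGF receptor ligands and other surface proteins, read 10.20, 10.73 and 9.92 in crest and 9.82, 10.06 and 10.05 in mesoderm. It was detected on every array, and its difference of -0.30 had a 95% interval of -0.90 to 0.29 (adjusted p = 0.471). Adam9, a widely expressed ADAM, ranged from 5.98 to 6.58 in crest and from 5.69 to 6.80 in mesoderm, with a difference of -0.04 ± 0.32. Adam12 (meltrin alpha), known from muscle and mesenchyme, differed by 0.05 ± 0.22 and Adam28, known from lymphocytes, by -0.10 ± 0.23, each from probes detected on 2 crest arrays and on 2 and 1 mesoderm arrays. Adam10, the main Notch sheddase, and Adam33 were detected on no array and Adam8 on 1, so their levels were not measured here.

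Adam23, which lacks a working protease site and acts as an adhesion protein of neurons, was the single gene higher in crest. It read 7.49, 6.73 and 7.16 in crest and 5.32, 6.32 and 5.83 in mesoderm. The groups were separate, but the spread of the mesoderm arrays (SD 0.50, n = 3) was larger than the gap between the nearest arrays. The difference was -1.30 ± 0.32, 2.47-fold higher in crest, with an adjusted p of 0.0222. Leaving out crest replicate 1, crest replicate 3 or mesoderm replicate 1 ended the call (adjusted p 0.0727, 0.0840 and 0.0742). The 7 neural tube and 4 neuron markers above were higher in the same sort, and their part in the Adam23 difference was not tested. The other neural ADAMs without protease activity, Adam11 and Adam22, were each detected on 1 array.

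None of the 20 ADAMs of testis and sperm named on the array was detected on enough arrays. Adam32 was detected on 2 arrays, Adam4 and Adam6a on 1 each and the other 17 on none.

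Of the ADAMTS hyalectanases, which cleave versican, aggrecan and related proteoglycans, Adamts9 and Adamts15 were higher in mesoderm and Adamts4 was not called. Adamts15, a versican-cleaving enzyme, read 5.52, 5.28 and 5.19 in crest and 5.92, 6.16 and 6.21 in mesoderm. The groups were separate, but the crest values lay at the detection limit, with 2 of 3 crest arrays detected. Its difference of 0.77 ± 0.22 had an adjusted p of 0.0401, and the call was lost without any 1 of the 6 arrays (adjusted p 0.0646 to 0.160). Adamts4, an aggrecanase, read 8.87, 8.59 and 8.21 in crest and 8.08, 8.54 and 7.96 in mesoderm, with overlapping groups and a difference of -0.36 ± 0.26 (adjusted p = 0.388).

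Adamts9, a versican-cleaving enzyme of vessels and mesenchyme, had the largest difference of the 27 genes after background correction, but an uncertain identity. Without that correction Timp1 differed more (2.28 against 2.20). The line of the deposited table annotated to it read 4.72, 4.66 and 4.53 in crest and 8.20, 8.60 and 9.25 in mesoderm. It was not detected on any crest array, so the fold is a bound, at least 10.8-fold higher in mesoderm, where the crest side is taken as the lowest signal of a detected probe on each array (adjusted p = 3.35e-05). However, the deposited detection p-values of that line were 0.100 to 0.681, which belong to a dim probe, though its raw signals reached 615 in mesoderm. The adjacent line, which has no gene name and lies between Adamts8 and Adamts9 in a table sorted by gene, had signals of 99.2 to 124 and deposited p-values under 0.05 on all 3 mesoderm arrays. Which of these lines the bright signal belongs to cannot be told, and without Adamts9 there were 6 genes higher in mesoderm.

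The other tested ADAMTS enzymes were not called. Adamts12, which cleaves cartilage oligomeric matrix protein, read 6.35, 7.23 and 6.59 in crest and 7.52, 7.69 and 7.51 in mesoderm. The groups did not overlap, crest replicate 2 was nearest to mesoderm, and the difference of 0.85 ± 0.27 missed the threshold at an adjusted p of 0.0591. It passed without crest replicate 2 (1.11, adjusted p = 0.0198). Weighting the arrays also brought it past the threshold (0.97, adjusted p = 0.00748).

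Adamts19, whose substrates are little known, read 7.39, 7.93 and 7.01 in crest and 7.68, 8.28 and 7.65 in mesoderm, overlapping groups with a difference of 0.42 ± 0.30. Adamts7, which like ADAMTS12 cleaves cartilage oligomeric matrix protein, differed by 0.35 ± 0.26, from 6.49 to 7.08 in crest and from 6.94 to 7.51 in mesoderm. Adamts10, a partner of fibrillin microfibrils, ranged over 5.15 to 6.19 in crest and 4.66 to 6.48 in mesoderm, and replicate 3 was the lowest of each sort. Adamts13, which cleaves von Willebrand factor, differed by 0.02 ± 0.23. Adamts1 and Adamts6 were detected on 2 arrays each, and Adamts3, Adamts8, Adamts14, Adamts16, Adamts17, Adamts18, Adamts20 and the 4 Adamtsl genes on none. Adamts2 and Adamts5 had no probe of that name and were not analysed here. The same holds for Mmp15, Mmp27 and Adam19 of the other families.

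In all 50 genes were not tested, 41 detected on no array, 6 on 1 and 3 on 2. Their highest raw signal on any array was 165. This does not show that the genes are silent in these cells.

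The genes higher in mesoderm were higher in the sort that also held the endothelial, platelet, white cell, red cell and head mesoderm markers, with the sums given above. Timp1, Timp3, Mmp14, Mmp9 and Adam15 were detected on all 3 crest arrays as well. Which cells of the mesoderm sort carry these transcripts was not tested.

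Upstream sequence is shown for the genes called with a settled identity and an entry in RefSeq's GRCm38.p6 promoter table, 4 higher in mesoderm and 1 higher in crest, so that genes that moved the same way can be read side by side. The windows of 1 chromosome were left out of the table here, and of the 77 genes 47 had an entry in the rest. Each window is the 250 bases before the annotated start, 5′ to 3′ on the gene's strand: Timp1 at chrX:20869916-20870165 (plus), Timp3 at chr10:86300162-86300411 (plus), Mmp14 at chr14:54431348-54431597 (plus), Adam15 at chr3:89350029-89350278 (minus) and Adam23 at chr1:63445641-63445890 (plus). Capitals mark E-boxes (CANNTG, bound by basic helix-loop-helix factors, the same on both strands) and GC boxes (GGGCGG or its reverse CCGCCC, bound by SP factors).
Timp1: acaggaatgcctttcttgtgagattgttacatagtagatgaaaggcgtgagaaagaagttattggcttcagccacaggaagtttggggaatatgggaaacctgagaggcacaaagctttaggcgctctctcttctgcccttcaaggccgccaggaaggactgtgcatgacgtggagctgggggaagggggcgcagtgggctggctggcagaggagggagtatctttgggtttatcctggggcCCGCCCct
Timp3: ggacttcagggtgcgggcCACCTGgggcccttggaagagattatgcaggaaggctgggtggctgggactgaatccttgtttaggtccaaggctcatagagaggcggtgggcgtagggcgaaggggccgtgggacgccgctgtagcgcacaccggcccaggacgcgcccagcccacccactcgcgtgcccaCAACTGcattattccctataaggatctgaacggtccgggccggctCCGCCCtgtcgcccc
Mmp14: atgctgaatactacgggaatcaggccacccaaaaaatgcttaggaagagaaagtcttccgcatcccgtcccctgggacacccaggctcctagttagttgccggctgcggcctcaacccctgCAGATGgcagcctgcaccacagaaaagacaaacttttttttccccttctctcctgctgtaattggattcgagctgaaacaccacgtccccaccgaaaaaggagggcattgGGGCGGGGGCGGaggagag
Adam15: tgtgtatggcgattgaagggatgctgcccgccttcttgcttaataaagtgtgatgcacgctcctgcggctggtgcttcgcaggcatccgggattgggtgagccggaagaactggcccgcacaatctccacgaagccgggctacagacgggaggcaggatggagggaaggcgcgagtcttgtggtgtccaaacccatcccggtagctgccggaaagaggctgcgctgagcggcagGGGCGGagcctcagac
Adam23: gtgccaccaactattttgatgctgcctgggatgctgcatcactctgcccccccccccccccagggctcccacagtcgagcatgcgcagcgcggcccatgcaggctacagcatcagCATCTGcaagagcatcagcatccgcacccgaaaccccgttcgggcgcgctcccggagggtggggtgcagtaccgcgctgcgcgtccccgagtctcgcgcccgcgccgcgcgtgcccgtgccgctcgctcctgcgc
The 4 genes higher in mesoderm held a GC box (at 8 bases before the start in Timp1, 15 in Timp3, 19 and 13 in Mmp14, and 16 in Adam15), and Adam23 held none. E-boxes lay 232 and 60 bases before the start in Timp3, 129 in Mmp14 and 135 in Adam23. None of the 5 windows held the AP-1 motif TGANTCA on either strand. Among the 32851 windows left in the table, read at the same length, 66.2% held an E-box, 32.7% a GC box and 6.75% the AP-1 motif. These are matches of letters in a short window, from 5 genes picked for their difference, and they say nothing of binding.

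The surrounding protease system was read from lists of related genes. Their counts are to be read against the 18.3% of all genes called, 10.1% higher in mesoderm and 8.25% higher in crest, and lists this small may hold no call at that rate. Tspan17, Vcan, Col18a1, Cdh5, Cd44, Furin, Sdc1 and Reln, named below, were read from lines whose matching detection p-value lay on another line of the same gene. For them the gene is settled and the probe is not. None of 3 tested plasminogen system genes was called (Plat, tissue plasminogen activator, -0.79 ± 0.30, adjusted p = 0.108). Of 6 tested tolloid proteases and proprotein convertases, which trim procollagen and protease precursors, none was called, with Furin at 0.44 ± 0.28 and Bmp1 at -0.63 ± 0.34. Of 7 cathepsins and HTRA proteases tested, none was called. The values of these 3 lists ran from -0.79 to 0.75.

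Of 4 other inhibitors and inducers tested, 1 was higher in mesoderm. Col18a1, the collagen from which endostatin is cut, read 10.77, 10.51 and 10.88 in crest and 12.10, 11.93 and 12.57 in mesoderm, a difference of 1.48 ± 0.25 (adjusted p = 0.00396). Reck, a membrane-anchored MMP inhibitor, differed by 0.18 ± 0.31.

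Of 5 tested partners that carry or activate ADAM10 and ADAM17, 1 was higher in each sort. Tspan17, a tetraspanin that carries ADAM10 to the surface, read 6.71, 6.37 and 7.26 in crest and 10.46, 9.95 and 10.34 in mesoderm, with a difference of 3.47 ± 0.28 (adjusted p = 6.96e-05). Tspan33, of the same tetraspanin group, read 5.40, 6.05 and 6.55 in crest and was detected on no mesoderm array, at least 1.61-fold higher in crest (adjusted p = 0.035). It could pass the detection filter only through crest. The rhomboid partners of ADAM17, Rhbdf1 and Rhbdf2, differed by 0.24 ± 0.25 and -0.08 ± 0.23. Adam10 itself was not detected, and Adam17 was not called.

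Of 12 tested sheddase substrates, proteins that ADAMs cut at the surface, 3 were higher in mesoderm and 1 in crest. Cdh5 (VE-cadherin), which is also one of the endothelial markers, differed by 3.49 ± 0.28 (adjusted p = 5.9e-05), with crest values of 5.26, 4.79 and 5.00 at the detection limit and 1 of 3 crest arrays detected. Hbegf, a growth factor released by ADAM17, differed by 1.15 ± 0.26 (adjusted p = 0.0153) and Prnp, the prion protein, by 0.90 ± 0.23 (adjusted p = 0.0295). Sdc1, a heparan sulfate proteoglycan, read 8.24, 8.17 and 8.25 in crest and 7.16, 7.64 and 6.32 in mesoderm, a difference of -1.18 ± 0.33 (adjusted p = 0.0388). The crest arrays of Sdc1 lay close together and the mesoderm arrays were all lower and far apart. Cd44, at 0.97 ± 0.30, missed the threshold (adjusted p = 0.0541).

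Of 5 tested matrix substrates of ADAMTS enzymes, 3 were higher in mesoderm and 1 in crest. Vwf, the substrate of ADAMTS13 and a product of endothelium and platelets, was detected in mesoderm only and was at least 15.8-fold higher there (adjusted p = 8.73e-05). Col3a1 was likewise detected in mesoderm only, at least 3.64-fold higher (adjusted p = 0.00333). Both could pass the detection filter only through mesoderm, so the count of 3 is a description. Vcan, the versican that ADAMTS9 and ADAMTS15 cleave, read 5.03, 5.31 and 5.24 in crest and 6.70, 6.45 and 6.57 in mesoderm, a difference of 1.38 ± 0.21 (adjusted p = 0.00239), with 1 of 3 crest arrays detected. Reln (reelin), a secreted protein of neurons, was lower in mesoderm by a difference of -0.94 ± 0.27 (adjusted p = 0.0435).

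**Figure D3:**
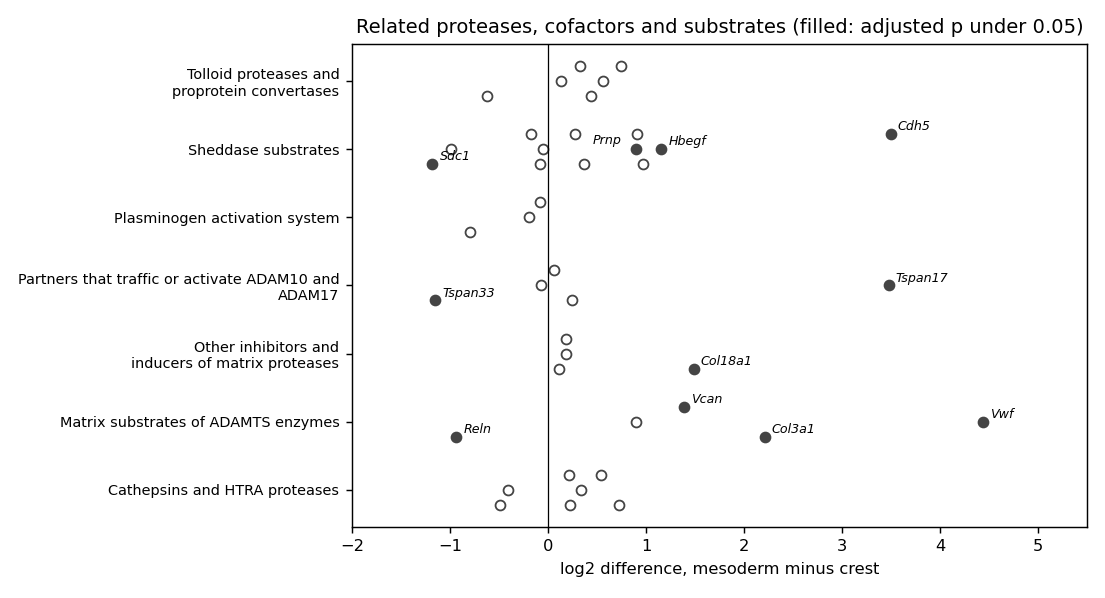
Log2 difference, mesoderm minus crest (horizontal axis), of the tested genes of 7 lists related to the proteases (rows), with filled, named points for an adjusted p under 0.05 in limma. Called points appear in the sheddase substrates, the ADAM10 and ADAM17 partners, the other inhibitors and the ADAMTS substrates, and none in the plasminogen, tolloid and cathepsin lists.

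The called differences held unequally under other processing. Timp1, Timp3, Mmp14 and Mmp9 kept their call in all 16 settings counted here. Adamts9 kept its call in the 15 that tested it, and failed the detection filter where the deposited detection p-values were used. Adam15 kept it in 15 and lost it only where the deposited detection p-values chose the probes. Adam23 kept its call in 11 and Adamts15 in 5. Differences of probes near background shrank without background correction, to 0.80 for Mmp9 and -0.63 for Adam23 beside the values given above.

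**Figure D4:**
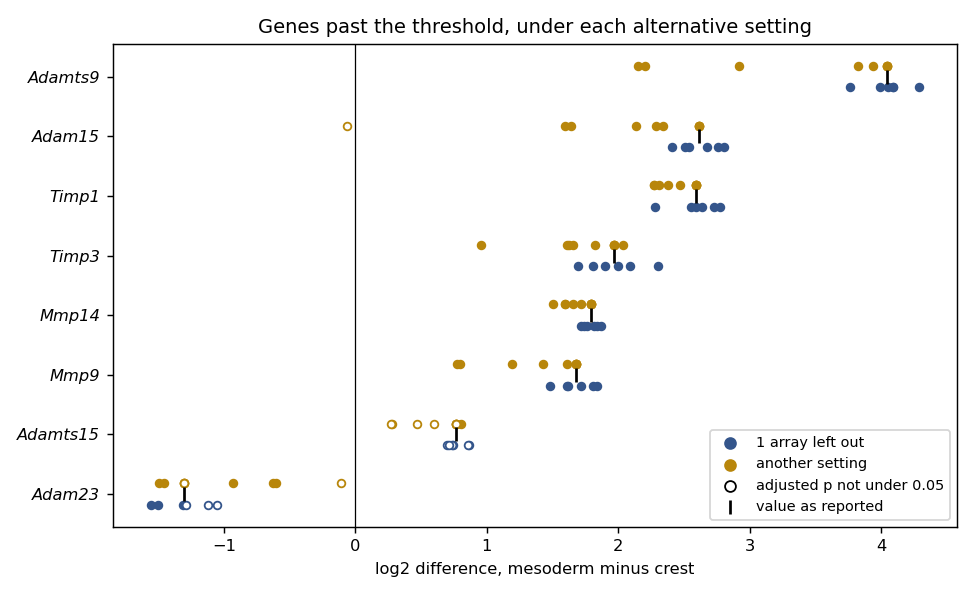
Log2 difference, mesoderm minus crest (horizontal axis), of the 8 genes past the threshold (rows) under each alternative setting and with each array left out; open points have an adjusted p not under 0.05 and black bars are the values as reported. Timp1 and Mmp14 stay close to their reported values, Adamts15 is open in most settings, and Adam15 has 1 open point near 0.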

How the data were processed

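RNA of 6 sorted samples was purified on QIAGEN micro columns, amplified and biotin-labelled with TotalPrep reagents and hybridized to Illumina mouse WG v2 arrays, per the labels' protocols. The authors deposited a linear signal intensity without background subtraction and a detection p-value for each of 45281 probes and each array, and a second table of log2 values. The software behind both is not given in the sources used here.

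On 12273 lines (27.1%) the deposited detection p-value was not the one the signal calls for (off by over 0.06), so it was read anew from the signal, as a running median over 101 probes in order of signal. For the 77 protease and inhibitor genes, 52 such lines occurred in 20 genes, and 50 of them had the matching p-value on a near line of the same gene and 2 (Adamts9 and Adam22) on a line with no gene name. Of the 27 tested genes, 8 were represented by such a line, Adam15 and Adam23 among them. In the related and marker lists 24 tested genes sat on such lines, and all 24 had the matching p-value on a line of the same gene. Apart from Adamts9 and Adam22, the gene behind these lines is settled and the probe is not.

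In R 4.3.3 with limma 3.58.1, intensities were corrected with the normal-exponential model, an offset of 16 was added, and arrays were quantile normalized. Probe names came from the platform annotation: 34885 probes had 1 symbol, 18 several and 10378 none. Every tested gene of the families is named; lmFit and eBayes compared the sorts without covariates, two-sided, with Benjamini-Hochberg adjustment over 9214 genes. The fit was tested on simulated data first. The genes and lists were chosen with earlier results of these data known. The number of arrays limits the precision. Alternatives covered background, offset, scaling, the deposited log2 values, the detection filter, probe choice, array weights, a replicate block and each array left out.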

Additional observations from a re-analysis of the deposited data

How the results depend on the processing

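Against 7 genes higher in mesoderm and 1 in crest as reported, the alternatives gave 5 to 8 and 0 to 2. The count higher in crest was 0 with the deposited detection p-values, 0 with no filter and 2 with array weights, and 0 to 1 with 1 array left out. Over all genes, median scaling gave 595 higher in mesoderm, array weights gave 1464 higher in crest against 760, and leaving out 1 array gave 333 to 801 higher in crest (333 when crest array 3, 433 when mesoderm array 1 and 499 when crest array 2 was omitted). Deviations of same-numbered replicates correlated at 0.12, 0.32 and 0.02, so the numbers were not taken to pair samples. With the replicate number as a block, 7 and 1 genes of the families and 1029 and 917 of all genes were called; Adamts12 gained its call (adjusted p = 0.0463) and Adamts15 lost it (adjusted p = 0.0598), and no other call changed. Adamts15 also lost it without background correction (0.28), with an offset of 50 (0.47), with median scaling (0.60) and with the authors' log2 values (0.27). Adam23 lost it with the deposited p-values (-0.11, another probe) and with no filter (adjusted p = 0.0793). Array weights brought in Adamts12 (0.97) and Mmp17 (-0.75).

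Of 425 values by gene and setting, 375 kept direction and call, 16 lost the call, 4 gained it and 30 changed sign. Among called genes only Adam15 changed sign, at -0.0625 with the deposited p-values. The others were uncalled genes whose differences as reported were near 0, from -0.10 for Adam28 to 0.12 for Mmp24. With the deposited p-values another line stood for Adamts13, Mmp24 and Mmp28, and the mean of probes took in the other kept probe of Mmp24. The cause of the remaining sign changes was not tested. Median scaling gave Adam12 -0.0587, Adamts10 -0.12, Adamts13 -0.083 and Mmp24 -0.20. The deposited p-values gave Adamts13 -0.0002, Mmp24 -0.94 and Mmp28 0.12, and the mean of probes gave Mmp24 -0.28. An offset of 50 gave Mmp16 0.0151, and array weights gave Mmp16 0.18 and Adam9 0.0273. With 1 array left out the ranges were -0.0524 to 0.14 for Adam12, -0.23 to 0.0025 for Adam28, -0.35 to 0.20 for Adam9, -0.27 to 0.65 for Adamts10, -0.10 to 0.17 for Adamts13, -0.38 to 0.42 for Mmp16, -0.065 to 0.37 for Mmp24 and -0.22 to 0.20 for Mmp28. The deposited p-values, which do not follow the signal, were not kept inside the background correction. When used there they collapsed all differences, and that trial is not counted among the alternatives above. Leaving out Adamts9 was chosen after seeing the data.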
